A study of Rattus norvegicus and Mus musculus with 56 samples.

Results

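Prostaglandin synthesis and signalling in the mouse dorsal horn was followed through 10 genes, out of 41388 gene identifiers counted in mouse. The rule that picks them is a list of symbols, drawn up with earlier results of these data known, and all 10 passed the filter on low counts. Ptgs1 and Ptgs2 encode the cyclooxygenases, Ptges, Ptges2, Ptgds, Hpgds and Tbxas1 encode enzymes that finish particular prostanoids, and Ptger1, Ptger3 and Ptger4 encode receptors for prostaglandin E2. The dorsal horn at spinal levels L4 and L5, where sensory fibres of the hindlimb end, was taken on day 7 after sham surgery or after spared nerve injury (SNI). SNI cuts branches of the sciatic nerve and spares a neighbouring one, and is used as a model of neuropathic pain. The mice were wild-type C57BL/6, and tissue came from the ipsilateral (operated) or contralateral (unoperated) side. Surgery, side and sex made 8 groups of 3 libraries, 24 in all, and poly(A) RNA was sequenced. The labels give no age, no number of animals per library and no account of which libraries share an animal, so the tests measure only how libraries vary.

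Prostanoids are lipid messengers made from arachidonic acid, which phospholipases release from membranes. A cyclooxygenase turns it into prostaglandin H2, and a terminal synthase then makes prostaglandin E2, prostaglandin D2, prostacyclin or thromboxane, which act on G protein-coupled receptors nearby. Aspirin and other non-steroidal anti-inflammatory drugs block the cyclooxygenases. In the dorsal horn, prostaglandin E2 is known for weakening glycinergic inhibition during inflammation, and Ptgs2 is known as the inducible cyclooxygenase gene of inflammatory pain.

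The stretch around the serine that aspirin acetylates shows how alike the cyclooxygenases are at the drug's target. Both sequences below are coding sequence on the plus strand of GRCm38, each within 1 exon, from GENCODE transcripts, and the capitals mark the serine codon. They lie at chr2:36251118-36251162 and chr1:150105495-150105539. The codon is number 532 of 602 in Ptgs1 and number 516 of 604 in Ptgs2, counted from the start codon, and 31 of 45 bases and 13 of 15 encoded residues were the same.

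Ptgs1: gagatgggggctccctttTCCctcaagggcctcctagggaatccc

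Ptgs2: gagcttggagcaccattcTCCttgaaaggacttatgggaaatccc

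Depth and tissue identity were checked first. Each library held 27.98 to 42.9 M reads on genes (median 32.6 M, with M for mega). The share of reads that fell on genes was 71.4% to 74.7% in libraries titled 33 to 48 and 75.4% to 76.1% in those titled 49 to 56, a split that the labels do not explain. Markers of dorsal horn and other neurons summed to 3604 to 4766 CPM, read counts scaled to a common library size, over the 24 libraries, with none at 0. Motor neuron markers, whose cells lie in the ventral horn, summed to 199.9 to 656 CPM, and markers of dorsal root ganglion neurons to 1.28 to 4.76 CPM. The 10 genes rested on 28 reads (Ptgs2 in its lowest library) to 40456 reads (Ptgds in its highest).

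Across conditions the genes differed widely in abundance, compared here as CPM per kilobase of exon. Ptgds stood at 378 ± 133 CPM per kilobase (SD, n = 24) and was above every other member in all 24 libraries. Ptges2 (5.02 ± 0.442) and Ptgs1 (3.43 ± 0.904) came next, and Ptges2 was the higher in 22 of 24 libraries. Ptges (1.17 ± 0.166) and Hpgds (1.10 ± 0.493) followed, with Ptges the higher in 18 of 24. Ptger4 stood at 0.679 ± 0.0962 and Ptgs2 at 0.566 ± 0.437 CPM per kilobase, with Ptger4 the higher in 20 of 24. The lowest were Ptger1 (0.348 ± 0.0545), Tbxas1 (0.336 ± 0.106) and Ptger3 (0.311 ± 0.0788), whose order changed from library to library. Ptger1 exceeded Tbxas1 in 14 of 24 libraries and Tbxas1 exceeded Ptger3 in 16 of 24. Within each pair of enzymes for the same step, the constitutive form was the more abundant per kilobase in 24 of 24 libraries: Ptgs1 over Ptgs2 by a median of 7.69 times, and Ptges2 over Ptges by a median of 4.36 times. Ptgds exceeded Hpgds, the other prostaglandin D2 synthase, by a median of 345 times.

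**Figure D1:**
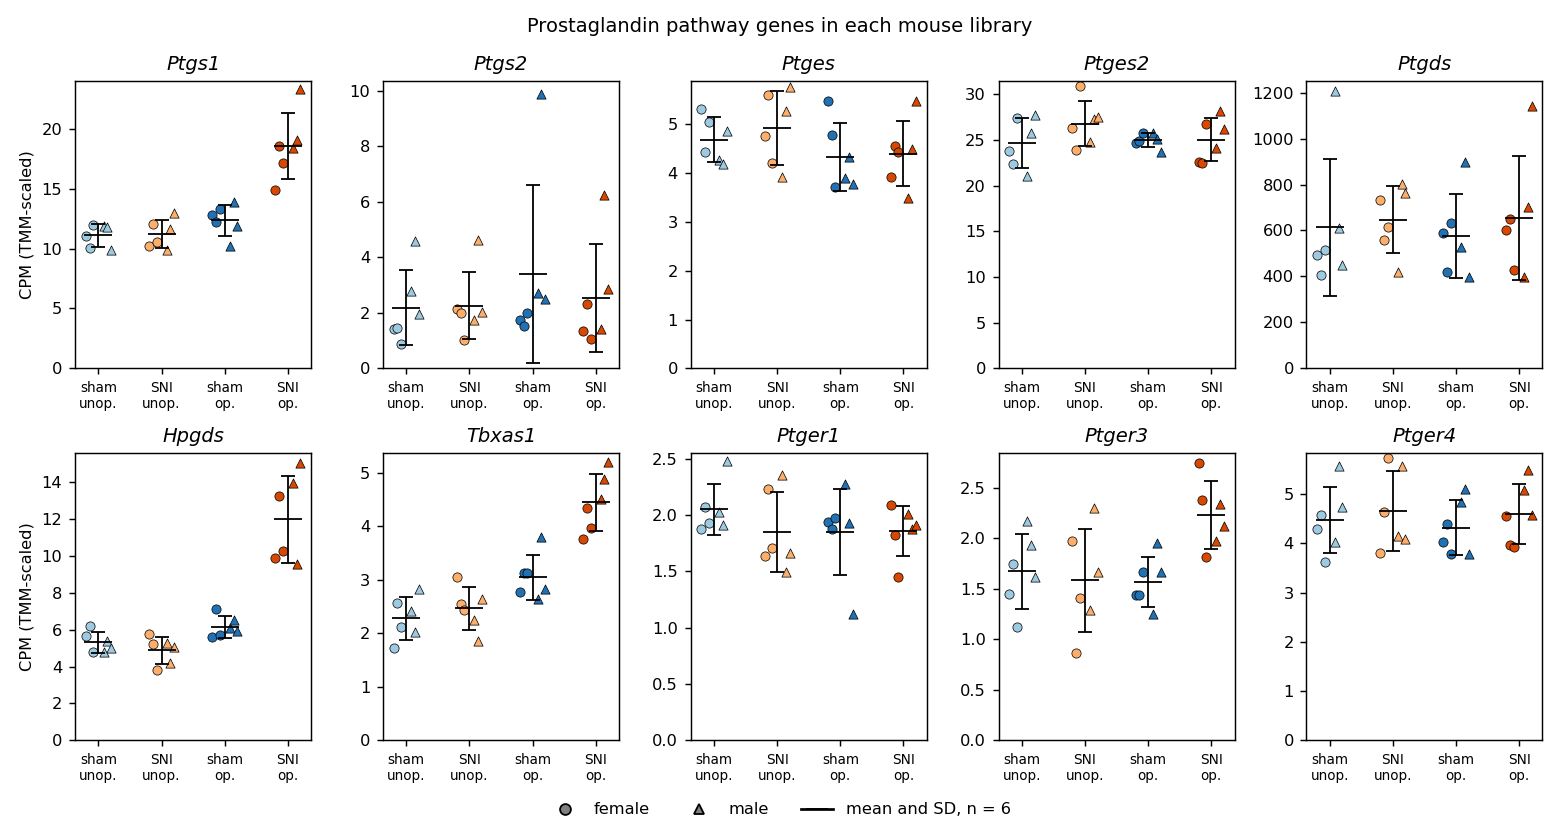
Level of each of the 10 genes in CPM (vertical axis, from 0) in 24 mouse libraries, grouped by surgery (sham or SNI) and side (unop., unoperated; op., operated). Circles are female and triangles male libraries, and the bars are means with SD (n = 6). Ptgs1 and Hpgds in SNI libraries of the operated side lie above all sham libraries of that side, at 14.8 to 23.3 and 9.56 to 14.98 CPM.

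On the operated side, 3 of the 10 genes rose after SNI: Hpgds 1.91-fold, Ptgs1 1.49-fold and Tbxas1 1.45-fold. None fell, and the other 7 did not pass the test. In bulk tissue, more cells of a type and more RNA per cell cannot be told apart. Over all 17602 genes tested there, 2.07% were called, with 1.94% higher and 0.131% lower, at an adjusted p under 0.05. The median log2 fold change was -0.00 over all genes. On the unoperated side, limma called none of the 10 and 0% of 17580 genes. There, voom also called 0 genes, 336 had an unadjusted p under 0.05, and the 10 genes lay between -0.16 and 0.15 on the log2 scale.

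Ptgs1 (ENSMUSG00000047250) encodes cyclooxygenase 1, the constitutive form, and lies on chromosome 2 at 36230426 to 36252272. On the operated side the sham libraries stood at 10.2 to 13.9 CPM (median 12.5, n = 6) and the SNI libraries at 14.8 to 23.3 CPM (median 18.5, n = 6). The lowest SNI library, at 14.8 CPM, was above the highest sham library, so the groups did not overlap. How large a share of all genes had groups apart in this way was not counted, here or for the genes below. SNI libraries were higher by 0.57 on the log2 scale (SE 0.0847, limma adjusted p = 0.00108), with a 95% confidence interval of 0.39 to 0.75.

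The effect of SNI on Ptgs1 differed between the sides. On the unoperated side the sham libraries stood at 9.89 to 11.9 CPM and the SNI libraries at 9.88 to 12.98 CPM, and the log2 difference was 0.01 (SE 0.0830). The effect of SNI was larger on the operated side by 0.56 (SE 0.122, adjusted p = 0.0229), where 0.637% of 18058 genes were called. This call was lost without any 1 of 10 of the 24 libraries, with adjusted p between 0.0102 and 0.0781 over the 24 fits. Those 10 were, on the operated side, sham male 1, sham female 2, SNI female 2, SNI female 3 and SNI male 3, and on the unoperated side sham male 1, sham male 2, sham female 3, SNI male 1 and SNI female 1. The value itself stayed between 0.51 and 0.62. With the motor neuron marker level in the model it was 0.57 and was not called (SE 0.152, adjusted p = 0.116), and those markers had a median log2 difference of -1.36 in the same comparison, with 0 of 8 called. Their part in the Ptgs1 difference was not tested.

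Ptgs2 (ENSMUSG00000032487) encodes cyclooxygenase 2, the inducible form, and lies on chromosome 1 at 150100031 to 150108227. It stood at 1.53 to 9.86 CPM in sham libraries of the operated side (median 2.25) and at 1.04 to 6.23 CPM after SNI (median 1.87). The groups overlapped almost wholly, and 1 male library in each was far above the other 5. Its log2 fold change was -0.35 (SE 0.438, adjusted p = 0.821), with a 95% confidence interval from 0.397-fold to 1.56-fold. Ptgs2 was the most variable of the 10, with a highest library 11.3 times its lowest.

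The high Ptgs2 libraries were all from males. In each of the 4 combinations of surgery and side the highest library was male, and these 4 were the highest of all 24. They were the sham libraries titled 37 (operated side, 9.86 CPM) and 38 (unoperated side, 4.60 CPM) and the SNI libraries titled 49 (operated side, 6.23 CPM) and 50 (unoperated side, 4.61 CPM). The labels do not say whether libraries with neighbouring titles share an animal, and the test of sex counts all 24 as independent. Averaged over surgery and side, males stood 0.996 above females on the log2 scale (SE 0.275, unadjusted p = 0.00195, adjusted p = 0.159), which was not called. For that comparison 0.537% of 18058 genes were called, and without each library in turn the difference lay between 0.84 and 1.12.

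**Figure D2:**
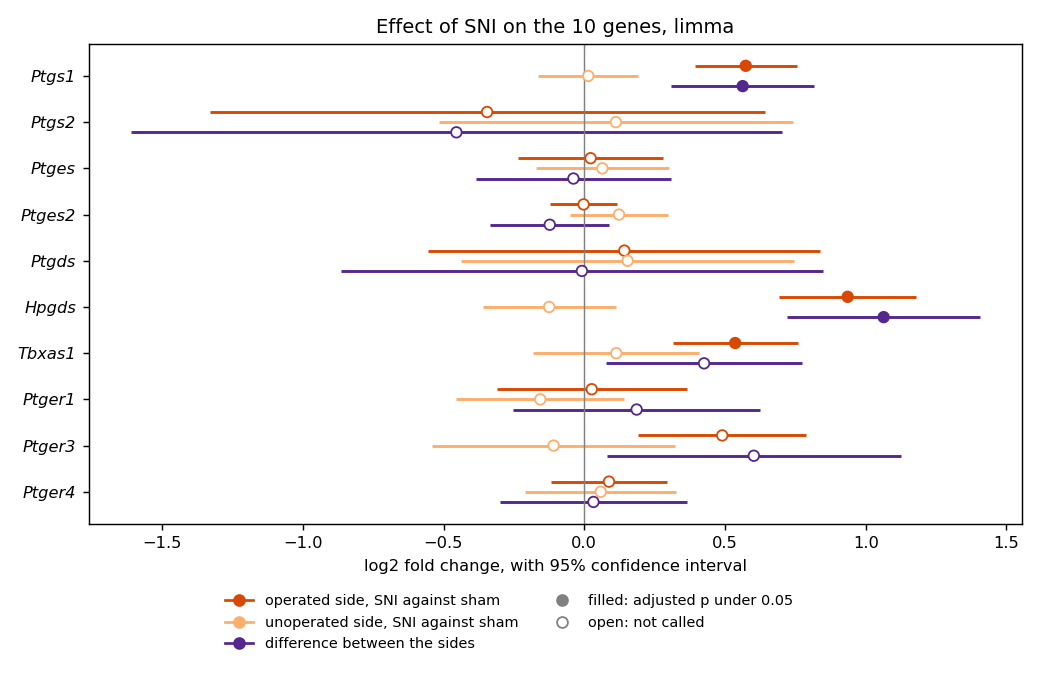
Log2 fold change (horizontal axis) with 95% confidence interval for each gene: SNI against sham on the operated side, on the unoperated side, and the difference between the sides. Filled points have a limma adjusted p under 0.05. Ptgs1 and Hpgds are filled on the operated side and for the difference, Tbxas1 on the operated side, and the intervals of Ptgs2 and Ptgds are the widest.

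Of the terminal enzymes among the 10, neither prostaglandin E2 synthase passed the test. Ptges (ENSMUSG00000050737, chromosome 2 at 30889471 to 30929863) encodes the inducible microsomal form that works with cyclooxygenase 2. It stood at 3.71 to 5.47 CPM in sham and 3.50 to 5.47 CPM in SNI libraries of the operated side, with a log2 fold change of 0.02 (SE 0.120, 95% interval -0.23 to 0.28). Ptges2 (ENSMUSG00000026820, chromosome 2 at 32395896 to 32405772) encodes a constitutive form. Its sham libraries stood at 23.7 to 25.8 CPM and its SNI libraries at 22.5 to 28.2 CPM, and the log2 fold change was -0.00 with the narrowest interval of the 10, -0.12 to 0.12.

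Hpgds rose the most. It encodes the hematopoietic prostaglandin D synthase (ENSMUSG00000029919, chromosome 6 at 65117293 to 65144908), known from mast cells, macrophages and microglia. On the operated side, sham libraries stood at 5.59 to 7.13 CPM (median 5.98) and SNI libraries at 9.56 to 14.98 CPM (median 11.7). No SNI library reached down to the sham range. This was a log2 fold change of 0.94 (SE 0.114, adjusted p = 0.000212), with an interval from 1.62-fold to 2.26-fold.

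On the unoperated side Hpgds stood at 4.80 to 6.18 CPM in sham and 3.79 to 5.75 CPM in SNI libraries, a log2 difference of -0.12 (SE 0.111). The effect of SNI was larger on the operated side by 1.06 (SE 0.165, adjusted p = 0.000707). This call held without each of the 24 libraries in turn, with adjusted p of at most 0.00233.

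Ptgds (ENSMUSG00000015090, chromosome 2 at 25466709 to 25470046) encodes the lipocalin-type prostaglandin D synthase, which is also secreted into cerebrospinal fluid and is known from meninges, choroid plexus and oligodendrocytes. It stood at 396 to 899 CPM in sham libraries of the operated side (median 559) and 396 to 1142 CPM after SNI (median 626). The lowest library of either group stood at 396 CPM, and the log2 fold change was 0.14 (SE 0.304, 95% interval -0.55 to 0.84). Its highest library of all, at 1206 CPM, was a sham male on the unoperated side.

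Ptgds moved with markers of meningeal fibroblasts, a list of 12 genes such as Col1a1 and Dcn that marks the membranes around the cord. The mean log2 CPM of the list was 4.81 in the library where Ptgds reached 1206 CPM and 4.93 in the library where it reached 1142 CPM. It was 2.85 and 3.16 in the libraries with 396 CPM on the operated side. Summed oligodendrocyte markers were also highest of all libraries in those with 1206 and 1142 CPM of Ptgds, at 35199 and 31094 CPM. In the libraries with 396 CPM they were 25305 and 29705 CPM. SNI female 3 of the unoperated side stood apart, with the lowest meningeal marker level, 2.43, and 614 CPM of Ptgds. With the meningeal marker level as a term in the model, the SE of the Ptgds log2 fold change on the operated side was 0.0805 instead of 0.304. The fold change was 0.18 (adjusted p = 0.403). The meningeal list itself had 0 of 12 genes called and summed to 299 to 914 CPM in sham and 234 to 596 CPM in SNI libraries of that side, with none of its genes at 0. How much of the spread of Ptgds comes from meninges left on the tissue or from oligodendrocytes was not tested.

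**Figure D3:**
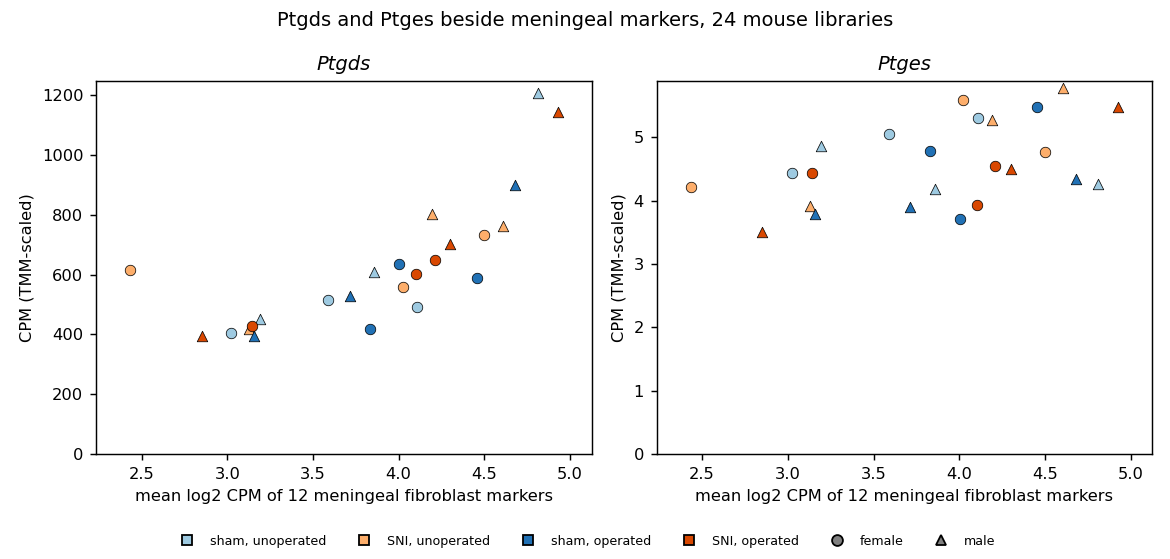
Ptgds and Ptges in CPM (vertical axes, from 0) against the mean log2 CPM of 12 meningeal fibroblast markers (horizontal axes, not from 0) in 24 mouse libraries, with colours for surgery and side and shapes for sex. The 2 libraries highest in Ptgds, at 1206 and 1142 CPM, lie at marker levels of 4.81 and 4.93, and SNI female 3 of the unoperated side lies alone at 2.43.

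Tbxas1 (ENSMUSG00000029925, chromosome 6 at 38875404 to 39084585) encodes thromboxane A synthase, known from platelets and macrophages. Sham libraries of the operated side stood at 2.64 to 3.79 CPM (median 2.97) and SNI libraries at 3.77 to 5.19 CPM (median 4.42). The ranges touched, since SNI female 1 (3.77 CPM) was just below sham male 2 (3.79 CPM), and 5 of 6 SNI libraries were above all sham libraries. SNI libraries were higher by 0.54 on the log2 scale (SE 0.104, adjusted p = 0.00974).

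For Tbxas1, the operated side also stood higher than the unoperated side after sham surgery, by 0.42 on the log2 scale (SE 0.119, unadjusted p = 0.00204, adjusted p = 1). Sham libraries stood at 2.64 to 3.79 CPM on the operated and 1.73 to 2.83 CPM on the unoperated side. Limma called 0% of 18058 genes in that comparison, with 742 at an unadjusted p under 0.05, and voom also called 0. The effect of SNI was not shown to differ between the sides for Tbxas1 (difference 0.43, SE 0.169, adjusted p = 0.687). Leaving out sham male 1 and sham female 1 of the operated side, which were highest there in markers of blood and of neutrophils, the SNI effect on Tbxas1 was 0.46 and no longer called (adjusted p = 0.075), an alternative chosen after the data were seen. Summed neutrophil markers were 159.6 CPM in that female library, and over the operated side 2.52 to 159.6 CPM in sham and 1.503 to 39.5 CPM in SNI libraries. With the motor neuron marker level in the model, the effect on Tbxas1 was also 0.46 and not called (adjusted p = 0.203). Motor neuron markers had a median log2 fold change of -0.81 on that side, with 0 of 8 called. The part of blood, neutrophils and motor neurons in the Tbxas1 result was not tested.

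After SNI, the operated side was compared with the unoperated side, using the same SNI libraries of the operated side as above. Hpgds was higher by 1.28 (SE 0.117, 2.42-fold, adjusted p = 7.32e-08), Tbxas1 by 0.84 (SE 0.119, 1.79-fold, adjusted p = 5.34e-05) and Ptgs1 by 0.72 (SE 0.0866, 1.64-fold, adjusted p = 5.78e-06). In each of these 3 the libraries of the sides did not overlap, and the share of all genes without overlap was not counted. In all, 6.85% of 18058 genes were called, 3.56% higher and 3.29% lower. None of the other 7 members passed the test. Motor neuron markers moved in the same comparison, with 5 of 8 called lower, none higher and a median log2 difference of -1.54. They summed to 199.9 to 370 CPM on the operated and 351 to 656 CPM on the unoperated side after SNI, with none at 0. With their level in the model, the calls of Hpgds (1.21, adjusted p = 0.000154), Ptgs1 (0.72, adjusted p = 0.00195) and Tbxas1 (0.81, adjusted p = 0.015) held. Of 12 markers of dorsal horn and other neurons, 3 were called higher and 1 lower in this comparison. Of 10 astrocyte markers 1 was higher, and of 3 dorsal root ganglion markers tested 1 was lower. All 15 microglia markers, described below, were higher. The part of these cell types in the 3 values was not tested.

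Among the receptors, none passed the test. Ptger3 (ENSMUSG00000040016, chromosome 3 at 157566892 to 157645888) encodes EP3, which mostly couples to inhibitory G proteins. It stood at 1.25 to 1.96 CPM in sham (median 1.55) and 1.82 to 2.75 CPM in SNI libraries (median 2.23) of the operated side, with 5 of 6 SNI libraries above all sham libraries. The log2 fold change was 0.49 (SE 0.140, unadjusted p = 0.0033, adjusted p = 0.109), an interval of 0.19 to 0.79. Between the sides after SNI the difference was 0.53 (SE 0.178, adjusted p = 0.0789). This value passed the test without SNI female 1 (0.66, adjusted p = 0.0154) or SNI male 2 (0.63, adjusted p = 0.0472) of the unoperated side. In 10 other alternatives without a microglia term it lay between 0.16 and 0.56, with 0 called and adjusted p up to 0.891. On the operated side, the SNI effect on Ptger3 lay between 0.31 and 0.51 in 11 such alternatives, with 0 called and adjusted p up to 0.817.

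Ptger4 (ENSMUSG00000039942, chromosome 15 at 5206661 to 5244187) encodes EP4, which raises cyclic AMP. Its sham libraries stood at 3.78 to 5.11 CPM and its SNI libraries at 3.93 to 5.49 CPM on the operated side, a log2 fold change of 0.09 (SE 0.0967). Of its exon length, 16.5% overlaps other genes on the opposite strand. Ptger1 (ENSMUSG00000019464, chromosome 8 at 83666678 to 83672753) encodes EP1, which raises calcium. It stood at 1.12 to 2.27 CPM in sham and 1.45 to 2.09 CPM in SNI libraries, with a log2 fold change of 0.03 (SE 0.158). With the strand setting of the counting not stated, the Ptger1 values are uncertain.

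By sex, the 3 called genes pointed the same way. Hpgds in sham libraries of the operated side stood at 5.59, 7.13 and 5.68 CPM in females and 6.07, 6.52 and 5.90 CPM in males. After SNI it stood at 9.86, 13.2 and 10.3 CPM in females and 13.9, 9.56 and 14.98 CPM in males. The log2 fold change was 0.85 in females (SE 0.161, adjusted p = 0.0287) and 1.02 in males (SE 0.161, adjusted p = 0.00287). Females had 0.415% of 17602 genes called and males 2.06%. The female call was lost without sham female 1, sham female 3, sham male 3, SNI female 2 or SNI female 3, with adjusted p up to 0.178. It was also lost with voom (0.84, adjusted p = 0.0652), with the motor neuron marker level in the model (0.96, adjusted p = 0.425) and without the libraries richest in blood and neutrophil markers (0.78, adjusted p = 0.183). In females the motor neuron markers had a median log2 fold change of -1.95, with 0 of 8 called.

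Ptgs1 in sham libraries of the operated side stood at 12.8, 12.2 and 13.3 CPM in females and 10.2, 13.9 and 11.9 CPM in males. After SNI it stood at 14.8, 18.5 and 17.2 CPM in females and 18.4, 19.02 and 23.3 CPM in males, so that within each sex no SNI library was in the sham range. The log2 fold change was 0.75 in males (SE 0.120, adjusted p = 0.00287) and 0.40 in females (SE 0.120, adjusted p = 0.331). For Tbxas1 it was 0.66 in males (SE 0.147, adjusted p = 0.0291) and 0.42 in females (SE 0.147, adjusted p = 0.429). The male call of Tbxas1 was lost without sham male 1, sham male 3, SNI male 2 or SNI male 3, with adjusted p up to 0.147. It was also lost with a term for titles 49 to 56 (0.60, adjusted p = 0.146) and without the libraries richest in blood and neutrophil markers (0.56, adjusted p = 0.121). The effect was not shown to differ between the sexes for any of the 10. For Ptgs1, the gene nearest to the threshold, males exceeded females by 0.36 (95% interval -0.01 to 0.72, adjusted p = 0.496). Limma called 0% of genes for that difference, with 1793 at an unadjusted p under 0.05, and voom also called 0.

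The 3 called genes moved with microglia, the resident macrophages of the cord. Of 15 microglia markers, 14 rose on the operated side after SNI, with a median log2 fold change of 1.11, and none was at 0. Their summed level was 443 to 540 CPM in sham and 711 to 1119 CPM in SNI libraries of that side, and 375 to 470 CPM on the unoperated side over both surgeries. Markers of border macrophages and monocytes had 0 of 9 called, with sums of 14.6 to 26.9 CPM in sham and 15.3 to 32.3 CPM in SNI libraries.

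Set against the microglia markers, the 3 genes parted. Per 1000 CPM of summed markers, Hpgds stood at 12.8 ± 1.31 CPM in sham and 12.6 ± 1.62 CPM in SNI libraries of the operated side (SD, n = 6 each). Ptgs1 stood at 25.6 ± 1.98 in sham and 19.5 ± 1.15 in SNI libraries, and Tbxas1 at 6.29 ± 0.567 and 4.70 ± 0.374, with no overlap between the groups for either. On the log2 scale these ratios differed by -0.02 for Hpgds, -0.39 for Ptgs1 and -0.42 for Tbxas1. The ratios were chosen after the data were seen and carry no test. The part of microglia in the rise of the 3 genes was not tested.

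A fit with the mean microglia marker level as a term gave values without a call for all 3. The operated side log2 fold change was -0.03 for Hpgds (SE 0.386), -0.30 for Ptgs1 (SE 0.258) and -0.13 for Tbxas1 (SE 0.391). The SE was 3.04 to 3.76 times that without the term, and the marker level itself separated SNI from sham. No gene of the 17602 was called in that fit. Between the sides after SNI, the term left 0.44 for Hpgds (adjusted p = 0.866), 0.59 for Tbxas1 (adjusted p = 0.834) and -0.45 for Ptgs1 (adjusted p = 0.743).

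**Figure D4:**
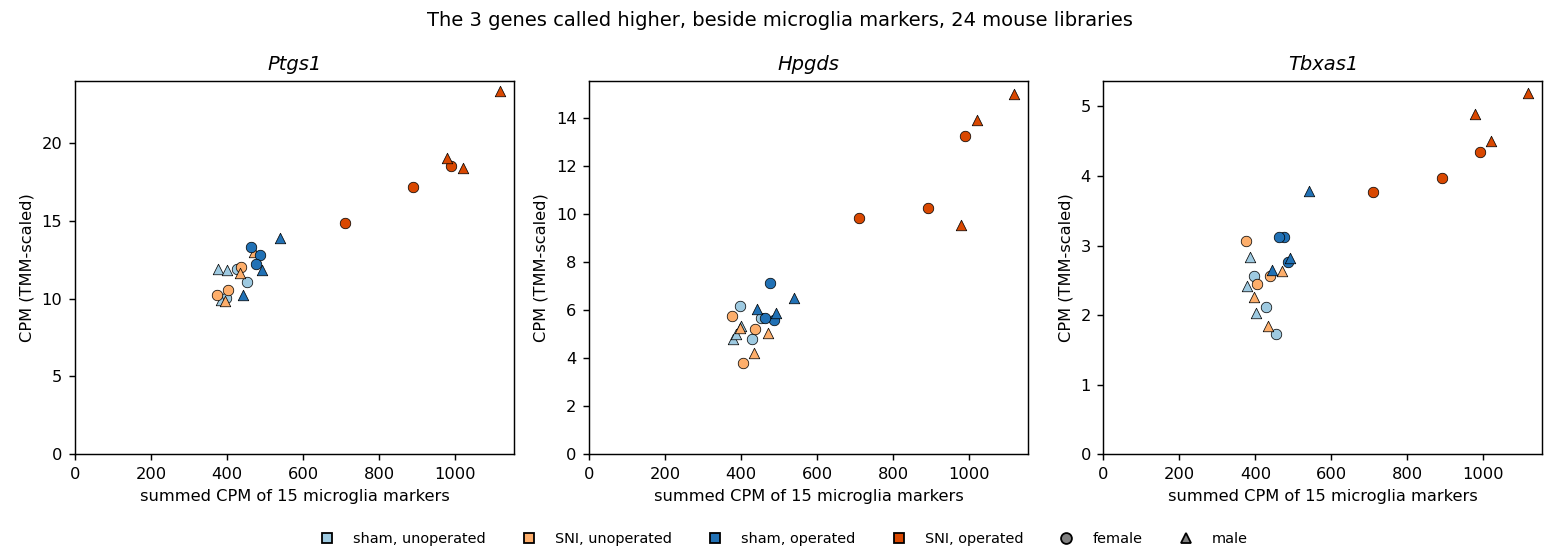
Ptgs1, Hpgds and Tbxas1 in CPM (vertical axes, from 0) against the summed CPM of 15 microglia markers (horizontal axes, from 0) in 24 mouse libraries, with colours for surgery and side and shapes for sex. SNI libraries of the operated side lie at 711 to 1119 CPM of markers, and all other libraries at 540 CPM or below.

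The genes most like each member were named by Pearson r of log2 CPM over the 24 libraries, as a description in which SNI libraries of the operated side and all others are pooled. For Ptgs1 they were Csf1r (0.957), the receptor microglia need to survive, then Tmem119, Pik3cg, Selplg and Laptm5. For Hpgds they were the Fc receptor gene Fcgr1 (0.961), then Ly86, Fgd2 and Siglech. Tbxas1 was closest to Plek (0.878), which encodes pleckstrin, then Nckap1l, Golm1, Vav1 and Blnk. Among themselves, Hpgds and Ptgs1 had an r of 0.865, Tbxas1 and Hpgds 0.858, and Tbxas1 and Ptgs1 0.821.

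The other members had different companions. Ptgds was closest to Ccn2 (0.940), which encodes connective tissue growth factor, then Slc6a20a, Wnt16, Atp13a5 and Slc26a7. Ptgs2 was closest to Ch25h (0.884), then Tmem252, the AP-1 gene Fosl2, the inducible heat shock gene Hspa1b, and Sele, which encodes the endothelial adhesion molecule E-selectin. Ptges was closest to Lum (0.753), a gene of the meningeal list, then Edn2, Emp1, S1pr3 and Mfap4. Ptger3 was closest to Stac (0.800), then Ablim3, Cited2, Tlx3, a transcription factor of excitatory dorsal horn neurons, and Ak4. Ptges2 was closest to Psmb4 (0.902), then Chpf, Abca3, Atp6v0e2 and Gapdh. Ptger4 was closest to Dnajb1 (0.769), then Uspl1, Cct3, Cct7 and Edrf1. For Ptger1 the highest r, with Hdac8, was 0.671, followed by Lrrd1, Gm13832, Gpatch2 and Gm26684.

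Libraries titled 49 to 56 were also compared on their own, since more of their reads fell on genes. The ratio of SNI to sham means on the operated side was 1.98 for Hpgds, 1.41 for Ptgs1 and 1.39 for Tbxas1 in libraries titled 33 to 48 (3 SNI and 5 sham). It was 2.04, 1.49 and 1.496 in those titled 49 to 56, where 3 SNI libraries stood against 1 sham library. The SNI libraries titled 49 and 51 were from males, and SNI library 55 and sham library 53 were from females. Ptger3 was also above 1 in both sets of titles, at 1.53 and 1.26, and Ptger4 at 1.02 and 1.24. The other 5 members lay on opposite sides of 1. Ptgs2 went from 0.462 in titles 33 to 48 to 1.68 in titles 49 to 56, Ptges from 0.897 to 1.30, Ptges2 from 0.929 to 1.05 and Ptgds from 0.971 to 1.196, while Ptger1 went from 1.08 to 0.884.

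Another 39 gene symbols covered arachidonic acid release, prostanoid handling, the lipoxygenase branch and Glra3. Of these symbols, 38 were matched and 35 were tested on the operated side. There 4 rose and none fell, against 2.07% of all genes, with a median log2 fold change of 0.00. None of 5 other prostanoid synthesis genes, 5 other prostanoid receptor genes and 5 genes of transport and breakdown was called there. The synthesis genes include Ptges3, at 88.4 to 105.7 CPM in sham and 85.7 to 100.8 CPM in SNI libraries. The receptor genes include Ptger2, for EP2, at 0.09 (SE 0.177, adjusted p = 0.888). Glra3, which encodes the glycine receptor subunit that prostaglandin E2 is known to act on through EP2, stood at -0.00 (SE 0.0842, adjusted p = 0.992).

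The lipoxygenase branch, which makes leukotrienes from the same arachidonic acid, held 3 of the 4. Ltc4s, which encodes leukotriene C4 synthase, rose from 1.19 to 1.80 CPM in sham (median 1.57) to 2.78 to 5.29 CPM in SNI libraries (median 3.86), with no overlap. Its log2 fold change was 1.28 (SE 0.142, 2.42-fold, adjusted p = 7.63e-05), and 26.4% of its exon length overlaps an antisense gene, Gm26542. With the strand setting of the counting not stated, its counts over the shared stretch are uncertain. The effect was larger on the operated than on the unoperated side by 1.53 (SE 0.193, adjusted p = 6.29e-05).

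Alox5ap, which encodes the protein that presents arachidonic acid to 5-lipoxygenase, stood at 2.62 to 4.27 CPM in sham and 4.53 to 6.72 CPM in SNI libraries. It rose by 0.59 (SE 0.109, adjusted p = 0.00698), and 13.3% of its exon length overlaps an antisense gene, Gm19719. That gene is not among the identifiers counted, so counts of Alox5ap over the shared stretch are uncertain too. Cysltr1, a receptor gene for cysteinyl leukotrienes, stood at 0.884 to 1.32 CPM in sham and 1.43 to 2.19 CPM in SNI libraries. Its change of 0.59 (SE 0.142, adjusted p = 0.0443) lost its call without any 1 of 10 of the 12 libraries, all but SNI female 1 and sham female 1, with adjusted p up to 0.144. It held in 4 of the 11 alternatives without the microglia term, with adjusted p of 0.0222 to 0.0989. Alox5 itself stood at 0.37 (SE 0.174, adjusted p = 0.413).

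Of 11 genes of arachidonic acid release, 1 rose: Pla2g15, which encodes the lysosomal phospholipase A2. It stood at 12.8 to 16.2 CPM in sham and 16.7 to 20.8 CPM in SNI libraries, a log2 fold change of 0.31 (SE 0.0604, adjusted p = 0.00985). That call was lost with the motor neuron marker level in the model (0.24, adjusted p = 0.275) and without the libraries richest in blood and neutrophil markers (0.26, adjusted p = 0.0752).

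Between the sides after SNI, 6 of 36 tested genes were higher and none lower, where 6.85% of all genes were called: these 4, Mgll, the monoacylglycerol lipase gene (0.26, SE 0.0607, adjusted p = 0.0106), and Hpgd, which encodes the enzyme that inactivates prostaglandins (0.31, SE 0.0833, adjusted p = 0.0262). The Hpgd call was lost without any 1 of 6 of the 24 libraries, on the operated side SNI female 2, SNI male 2 and SNI male 3, and on the unoperated side SNI male 1, SNI male 2 and SNI female 3, with adjusted p up to 0.0894. With the motor neuron marker level in the model, 5 of the 6 were no longer called: Hpgd (0.42, adjusted p = 0.103), Alox5ap (0.73, adjusted p = 0.122), Pla2g15 (0.25, adjusted p = 0.293), Cysltr1 (0.62, adjusted p = 0.385) and Mgll (0.20, adjusted p = 0.46). Ltc4s kept its call, with adjusted p of at most 4.7e-06 over the 10 alternatives without the microglia term. Abcc4, which encodes an exporter of prostaglandins, was higher in males than in females by 0.40 (SE 0.0736, adjusted p = 0.00802). There, 0.537% of 18058 genes were called, in a test that counts all 24 libraries as independent though some may share an animal.

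**Figure D5:**
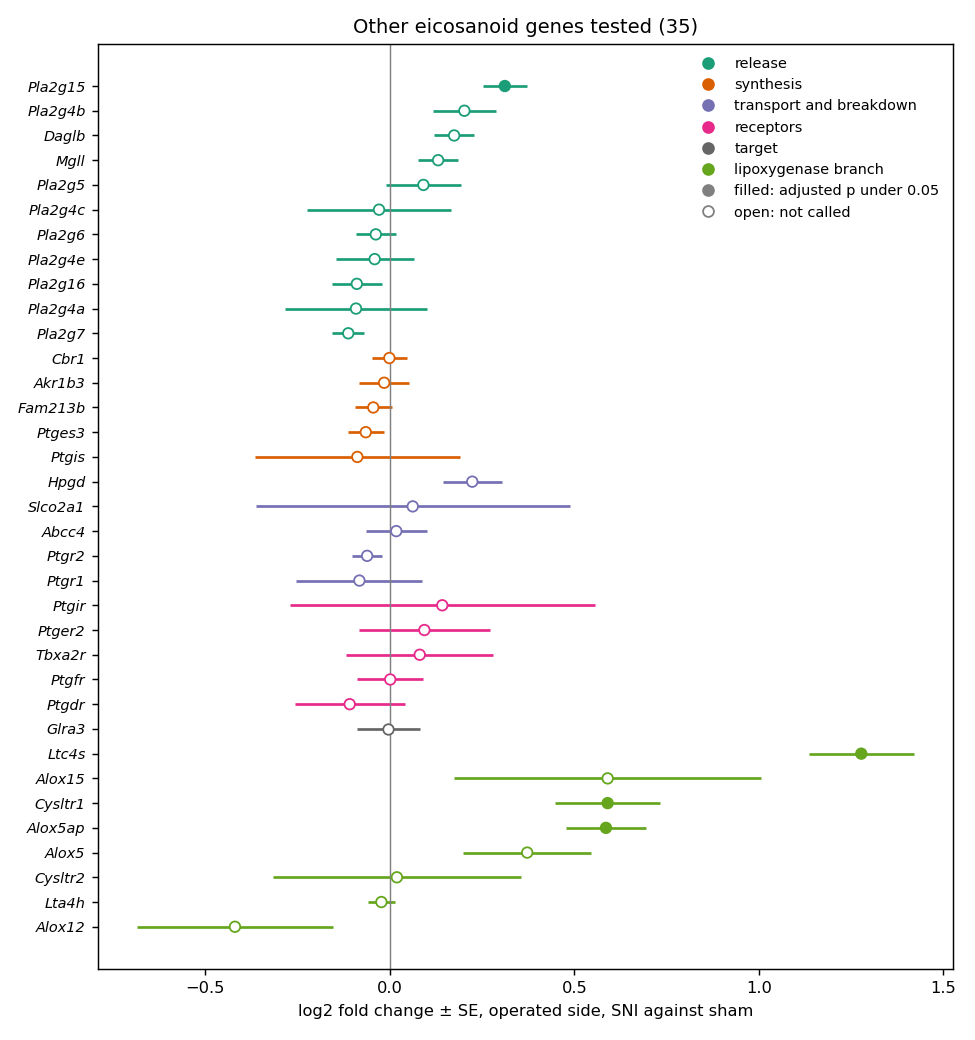
Log2 fold change with SE (horizontal axis) for SNI against sham on the operated side in 35 other genes of eicosanoid release, synthesis, handling and signalling, coloured by role. Filled points have a limma adjusted p under 0.05: Ltc4s at 1.28, Cysltr1 and Alox5ap at 0.59 and Pla2g15 at 0.31.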

How the data were processed

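The deposited tables hold whole-number read counts per gene identifier, made by the authors with no normalization. The submitters' processing notes name STAR, GRCm38, mm10 and Rnor_6.0. Which counter and annotation they used, and whether strand was considered, is not given in the sources used here. Entries that name no gene (no feature, 12.3% to 15.8% of all mouse entries; not unique, 9.92% to 12.8%; ambiguous, 0.370% to 0.418%) stayed out of library sizes and tests. The tables carry a comma-separated file type but use tabs, so an automatic format check did not accept the column as counts and it was recorded under no standard unit. Count-based tests were therefore not run.

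The 24 mouse libraries were scaled by TMM, a trimmed mean of log ratios (30% of ratios and 5% of levels trimmed), with factors of 0.950 to 1.04. The filter asked for about 10 counts in a library of median size, in at least 3 libraries, and 15 in total. Log2 CPM with a prior count of 2, which understates changes of low genes, was tested with limma 3.58.1 (trend, robust, R 4.3.3), two-sided, with p-values adjusted by Benjamini-Hochberg over all genes tested. SNI against sham used the 12 libraries of a side, and side and sex comparisons all 24. Errors of fold changes are SE from the model. The procedure was tested on simulated data. Within-group pairs of libraries differed by 6.50 to 33.9 in chi-square per degree of freedom, so none was treated as a duplicate. Symbols matched 40254 of 41388 identifiers, and positions, exon lengths and the sequences shown come from GENCODE transcripts and annotation of GRCm38. The 32 rat libraries were not analysed here. A planned search for promoter motifs was not run.

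Members and lists were chosen with earlier results of these data known. All members are named, other pathway genes where called in any comparison (others named were chosen after their values were seen), and the 5 genes with the highest r per member, of which 1 is not reported here. Alternatives covered scaling, prior count, filters, voom, marker levels in the model, a term for titles 49 to 56, all 24 libraries in the fit and each library left out. Tables were handled with pandas 2.3.3 and numpy 2.4.6 in Python 3.11.15, and plots made with matplotlib 3.10.9.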

Additional observations from a re-analysis of the deposited data

Results flagged for a closer look

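The effect of SNI differed between the operated and the unoperated side, by the test of that difference, for 3 genes named here. Hpgds had a difference of 1.06 on the log2 scale (SE 0.165), Ptgs1 of 0.56 (SE 0.122) and Ltc4s of 1.53 (SE 0.193). Of 18058 genes, 0.637% were called for that difference. The Ptgs1 call was lost without any 1 of 10 of the 24 libraries. The groups of 3 libraries were too small for a test of single outlying libraries, and each library was left out in turn instead.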

How the results depend on the processing

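No paired analysis was possible because the labels give no replicate number and tie no library to an animal. The numbers used here only name libraries in accession order. Over the alternatives other than leaving out 1 library, 990 of 1010 values of the 10 genes kept their direction where called and their side of the threshold. Of the rest, 11 lost their call and 9 lost it with a change of sign. With 1 library left out, 1539 of 1560 kept both, 19 lost and 2 gained a call. Most values were not called in the main fit, and a value called in neither fit counted as kept whatever its sign. Among those kept, 54 of the 990 and 105 of the 1539 changed sign without a call. The 9 that lost a call with a change of sign all came with the microglia marker level in the model, which separated SNI from sham. With other pathway genes added, the values that lost a call and changed sign under this term were as follows. On the operated side they were -0.30 for Ptgs1, -0.0293 for Hpgds, -0.13 for Tbxas1 and -0.27 for Cysltr1. In females it was -0.019 for Hpgds, and in males they were -0.20 for Ptgs1, -0.0396 for Hpgds, -0.0781 for Tbxas1 and -0.0373 for Ltc4s. Between the sides after SNI they were -0.45 for Ptgs1, -0.83 for Hpgd, -0.37 for Alox5ap, -0.0868 for Ltc4s and -0.10 for Cysltr1, and for the difference of the SNI effect between sides -0.37 for Ptgs1. That term left 0 genes called on the operated side, in females, in males, between the sides after SNI and for the difference between sides, and 59 between sexes. The motor neuron level left 1 gene in females and 320 between the sides after SNI. A term for titles 49 to 56 left 239 in males, no filter on low counts gave 1 between the sides after sham surgery, and leaving out the 3 libraries richest in blood or neutrophil markers left 53 between sexes.

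Leaving out 1 library gave 264 to 433 genes on the operated side, 42 to 108 in females, 194 to 420 in males, 0 to 1 for the difference between sexes in the SNI effect and 0 to 1 on the unoperated side. It gave 617 to 2111 between the sides after SNI, 0 to 1 after sham surgery, 100 to 155 for the difference between sides and 54 to 134 between sexes. Single libraries moved some of these counts by over 1.5 times. In females, 42 were left without SNI female 2 and 45 without sham female 3 of the operated side. In males, 194 were left without sham male 3 or SNI male 3 and 219 without SNI male 2. Between the sides after SNI, 2111 were called without SNI female 1, 617 without SNI female 3 and 767 without SNI male 1 of the unoperated side. Without SNI female 2, SNI male 2 and SNI male 3 of the operated side, each in turn, 690, 805 and 697 were called. Between sexes, 54 and 64 were left without sham male 1 and sham female 2 of the unoperated side, and 56 without SNI male 2 of the operated side. Counts of 1 came without SNI male 1 of the operated side (sexes), SNI male 1 of the unoperated side, and sham male 1 of the operated side (sides after sham surgery). The calls of Ptgs1 and Hpgds on the operated side held in each of these and in 11 of 11 alternatives without the microglia term, with log2 fold changes of 0.52 to 0.60 and 0.90 to 0.995. The call of Tbxas1 held in 9 of those 11. The causes were not tested. The fewest reads per library lay behind Ptgs2 (28 to 307), Ptger3 (29 to 108) and Ptger1 (35 to 82).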
